A study of Mus musculus with 150 samples.

Results

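Distal chromosome 17 was examined in single cells of T9, 1 of 3 microdissected lung tumours of 1 mouse whose cells were sequenced for DNA copy number. The cells were chosen by their level over the 71 bins from 59285304 to 94887271 of chromosome 17 (GRCm38), a stretch of 35.6 Mb that ends at the last bin of the chromosome. A cell's level is the median log2 ratio of these bins, with the median over its autosomes set to 0. It reached 0.322, which corresponds to 2.5 copies where 2 are the norm, in 22 of the 50 T9 cells (44%, exact Clopper-Pearson 95% interval 30.0 to 58.7), out of 150 cells in the series. These 22 are called the high cells here and the other 28 the remaining cells. The data went against a reading of the 2 groups as cells with and without the gain, since the remaining cells also had a raised distal level and, in most of them, the same step on the chromosome.

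All cells came from tumours dissected 30 weeks after induction in a mouse that the labels call KP, a model of lung adenocarcinoma on a mixed C57BL/6 and Sv129 background. The strains named for the study include Trp53flox/flox, in which Cre deletes parts of both Trp53 alleles, and the reporters Rosa26LSL-tdTomato and Rosa26LSL-Luciferase. The labels name AdSPC-Cre, an adenovirus that directs Cre to cells with an active surfactant protein C promoter, and AdCMV-FlpO as inducers in the study, without stating which one this mouse received. The source is given as alveolar type 2 cells of lung tissue, which DNA cannot check, and every alteration and treatment was shared by both groups of cells. T1 and T7, with 47 and 48 cells after a noise filter, served only to show the same bins elsewhere. Both groups are cells of 1 tumour split by a measured level, so they are described without tests. Intervals of shares cover counting error only.

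Copy number changes in a tumour are carried by a cell lineage, so cells that descend from 1 altered cell share the position at which a chromosome was broken. A gain or loss of a whole chromosome, by contrast, moves all its bins together and leaves no step within it. Shallow sequencing of single cells reads both as a change of level relative to the rest of the same genome, and a doubling of the entire genome leaves the relative levels as they were. Distal mouse chromosome 17 carries, among others, the receptor tyrosine kinase gene Alk, the hypoxia factor gene Epas1, the mismatch repair gene Msh6 and the RAS activator gene Sos1. Proximal chromosome 17 carries the major histocompatibility complex and the cell cycle inhibitor gene Cdkn1a.

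The first question was whether the distal levels form 2 groups or 1 spread. They ran from 0.056 to 0.895 over the 50 cells, with a median of 0.31 and an SD of 0.15, and every cell lay above 0. The high cells had levels from 0.35 to 0.895 with a median of 0.47 (SD 0.11), and the remaining cells from 0.056 to 0.316 with a median of 0.24 (SD 0.07). These values chose the groups and are given as a description only. The cell just inside the threshold, cell 180131, lay at 0.35, and the cells just outside it, 180114, 180123, 180122, 180150 and 180112, lay at 0.316, 0.315, 0.313, 0.313 and 0.311. With cells 180134 and 180132, both at 0.293, these made 8 cells within 0.03 of the threshold. The lowest level was that of cell 180117.

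The threshold fell in a gap of 0.034 between neighbouring cells, and this was the sixth widest gap in the ordered levels. The widest, 0.29, set cell 180124 at 0.895 apart from cell 180146 at 0.600. The fourth widest, 0.044, lay just above cell 180131, between 0.35 and 0.394, and left 29 cells below and 21 above. The error of a single level was 0.020 when estimated from odd against even bins of the stretch and 0.027 from its first against its last bins. The gap at the threshold was therefore 1.75 or 1.29 times the error of a level, whereas the SD over cells was 7.62 or 5.62 times that error. Both errors come from differences between bins of the stretch. A shift of all its bins in a cell, as from the centre of that cell, is not part of them. Cells thus differed by more than this error between bins, but the cells on either side of the threshold did not stand far apart.

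A single Gaussian and a pair of Gaussians of equal spread described the 50 levels about equally well. The Bayesian information criterion (BIC), which is lower for the better description after a penalty for each parameter, was 0.80 lower for the single Gaussian. The second component of the pair held cell 180124 alone. Without that cell, the pair had means of 0.24 and 0.46 with shares of 58.5% and 41.5%, and the single Gaussian still had the lower BIC by 0.97. This difference changed sign under 6 alternatives, given with the processing dependence, so the levels were not resolved into 2 groups or 1. Over 62 other stretches of 71 bins, the SD over T9 cells had a median of 0.14 (range 0.069 to 0.27), and 27 of them exceeded that of distal chromosome 17. A pair of Gaussians had the lower BIC in 52 of these 62 stretches.

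**Figure D1:**
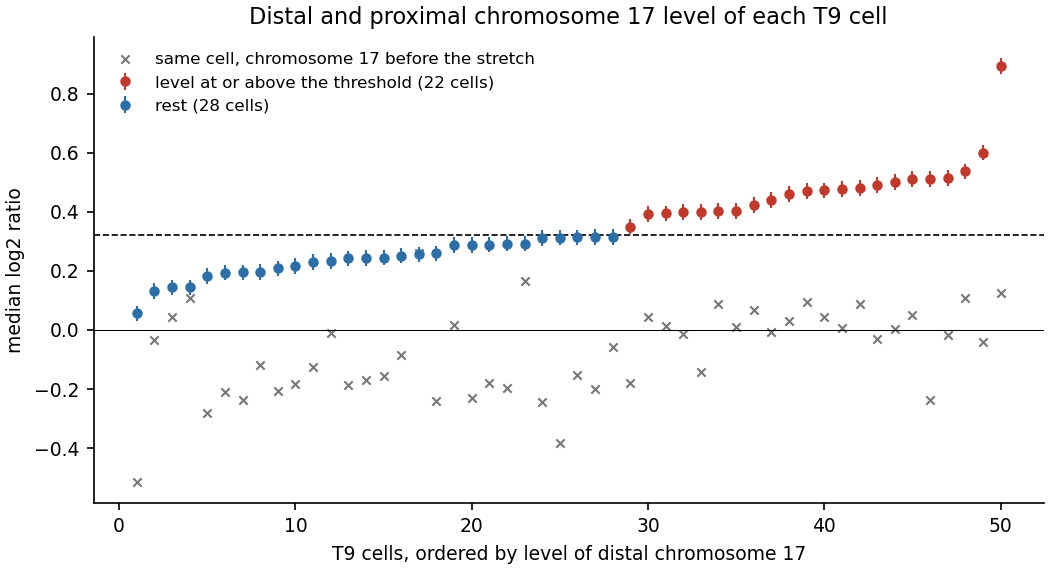
Distal chromosome 17 level (median log2 ratio, filled points) of each T9 cell in ascending order, with an error of 0.027 for each level (bars) and the level of the chromosome before the stretch in the same cell (crosses). The dashed line is the threshold of 0.322. The levels climb from 0.056 to 0.600 with gaps of at most 0.076, and 1 cell lies apart at 0.895.

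The level was then measured in bins that the choice of cells did not use. Of 23 cells chosen from the odd bins of the stretch, 22 also passed the threshold in the even bins, as did 2 of the other 27. The even-bin levels of the chosen cells ran from 0.29 to 0.92 with a median of 0.47, and those of the others from 0.059 to 0.37 with a median of 0.25, so the ranges overlapped. With the roles exchanged, 22 of 24 chosen cells and 1 of 26 others passed in the odd bins. Across the 50 cells, which share their reference and bins, levels from odd and even bins had a Pearson r of 0.97 (Spearman rho 0.95, and r 0.95 without the 2 farthest cells). The order of the cells was thus much the same in both sets of bins, while some cells near the threshold changed sides. Odd and even bins alternate along 1 stretch and share the centre of the cell, so this likeness was largely given in advance. It describes how well a level was repeated and gives no support to the groups.

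The position of the step on chromosome 17 was the same in both groups. A single break fitted to the median profile of the high cells fell at 59285304, with a step of 0.46 on the log2 scale, and in the remaining cells it fell at the same bin with a step of 0.40. In single cells, the break lay in that bin or a neighbouring one in 22 of 22 high cells (95% interval 84.6 to 100) and in 22 of 28 remaining cells (78.6%, 59.0 to 91.7). The fit includes the bins that chose the cells, and a high level there favours a break at their start. The count in the high cells is therefore a description only. Of the other 6 remaining cells, 3 had it 2 bins further on, at 60288176, and 3 had it elsewhere. In T1 and T7, the break was within 1 bin of this position in 2 of 47 and 0 of 48 cells, and the step was at least 0.3 in 0 and 0 of them. Taking 3 cells as the limit for a count of 0, in place of the exact interval, shares up to 6.38% and 6.25% remain possible. The distal level had a median of 0.14 in T1 (range -0.23 to 0.36) and -0.02 in T7 (range -0.08 to 0.17). A raised distal level without such a step was thus also seen in cells of T1.

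The last bin before the step, 58783868 to 59285303, lay at 0.08 in the high cells and at -0.21 in the remaining cells. The first bin after it, 59285304 to 59786739, lay at 0.37 and 0.21. In T7 these bins lay at 0.05 and 0.01, and in T1 at 0.25 and 0.01. The bin before the step is labelled with Nudt12, a gene of a nucleotide hydrolase, and its antisense transcript, while the next 4 bins are labelled with no gene. RefSeq also places the protein-coding gene Pdzph1 (58878808 to 58991375) in the bin before the step. The nearest protein-coding gene of RefSeq before the step was Nudt12 (59000107 to 59013367), and none started within 3 Mb after it. The first of the listed genes beyond it was Efna5, an ephrin ligand gene, centred 3.46 Mb from the step. With bins of about 500 kb, the break itself was not placed more closely than this.

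The sizes of the step overlapped between the groups. The distal level exceeded the proximal level, the median of the 112 bins from 3000001 to 59285303, by 0.31 to 0.77 with a median of 0.44 (SD 0.12) in the high cells, and by -0.003 to 0.69 with a median of 0.41 (SD 0.17) in the remaining cells. The step contains the level that chose the cells, so this too is a description. A high cell had the larger step in 64.1% of all pairs of a high and a remaining cell. As a ratio of copies, the median step was 1.35-fold in the high cells and 1.33-fold in the remaining cells. A step of at least 0.3 was present in 22 of 22 and 21 of 28 cells (75%, 55.1 to 89.3). In those 43 cells the medians were 0.44 (SD 0.12) and 0.43 (SD 0.09), but the bound leaves out 7 remaining cells and 0 high cells and so brings the medians closer.

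**Figure D2:**
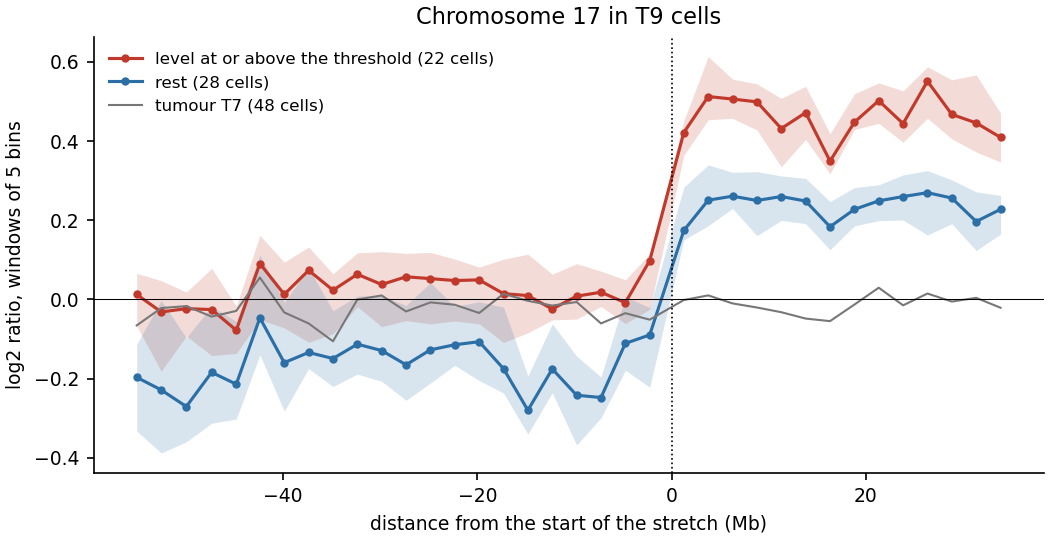
Median log2 ratio in windows of 5 bins along chromosome 17 against the distance in Mb from the start of the stretch, for the 22 high cells, the 28 remaining cells and the cells of T7; shading spans the quartiles over cells. Both T9 groups step upward at 0 Mb, and the remaining cells lie lower on both sides of it, while T7 shows no step.

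Outside the stretch, the clearest difference ran along the rest of the same chromosome, while single windows elsewhere also differed. The bins of proximal chromosome 17 took no part in choosing the cells, but their level is not independent of the choice. Both levels share the centre of the cell, the distal level is the proximal level plus the step, and most T9 cells have a step. Choosing by the distal level thus chooses in part by the proximal level, and the values here are a description. The proximal level ran from -0.24 to 0.13 with a median of 0.01 (SD 0.09) in the high cells. In the remaining cells it ran from -0.51 to 0.26 with a median of -0.17 (SD 0.16). The high cells were 0.19 higher by medians, the ranges overlapped, and the high cell was the higher one in 79.4% of pairs. A proximal level of -0.1 or lower, a bound set after the values were seen, was found in 3 of 22 high cells (13.6%, 2.91 to 34.9) and in 19 of 28 remaining cells (67.9%, 47.6 to 84.1). The difference between the groups was thus 0.23 in the stretch that chose them and 0.19 in the part of the chromosome before it.

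The difference ran along the entire proximal part. Windows of 10 neighbouring bins, about 5 Mb each, were compared by the medians of the 2 groups and counted where these differed by at least 0.1. Of 506 windows outside the stretch, 22 did so (4.35%). Of these 22 windows, 14 were higher in the high cells (2.77%) and 8 lower (1.58%). All 11 windows of proximal chromosome 17 were among them, each higher in the high cells, by 0.14 to 0.27. Of the 495 windows on other chromosomes, 11 passed (2.22%), 3 higher (0.606%) and 8 lower (1.62%). Bin by bin, 61 of 5078 bins differed by at least 0.2 (1.20%), of which 38 lay on proximal chromosome 17, 33.9% of its 112 bins, and 23 among the 4966 bins elsewhere, 0.463% of them. The number of windows on other chromosomes depended on the choices made, from 2 to 85, while on proximal chromosome 17 at least 8 of 11 windows passed in every setting with windows of 10 bins, and 6 of 6 with windows of 20.

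**Figure D3:**
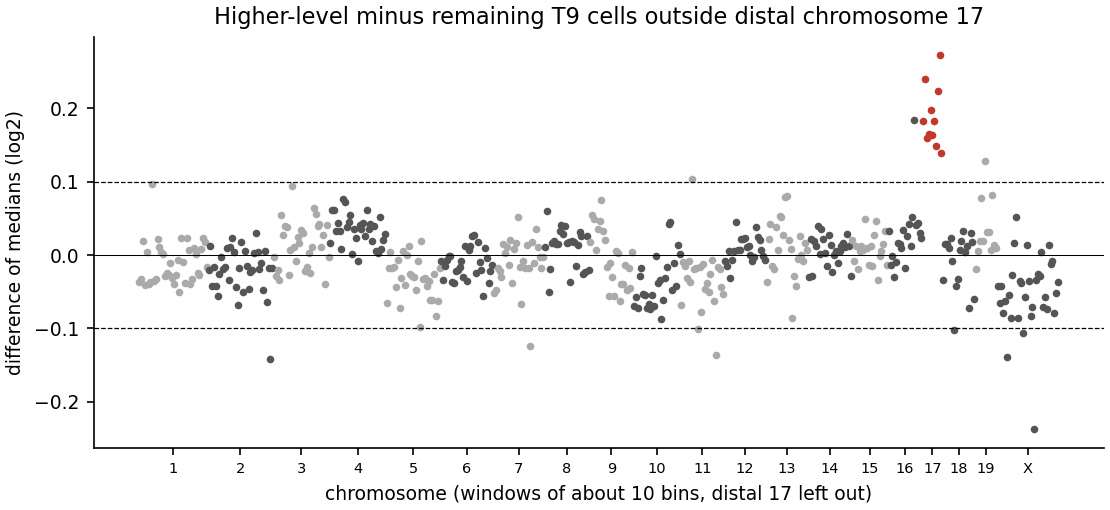
Difference of medians, 22 high minus 28 remaining T9 cells, for each of 506 windows outside distal chromosome 17, in order of chromosome; dashed lines mark 0.1 and -0.1. The 11 windows of proximal chromosome 17 (red) all lie above 0.1, and 11 of the other 495 lie beyond either line.

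Of the 10 windows with the largest differences, 8 lay on proximal chromosome 17. The largest, 0.27, was the window from 48253708 to 53268069, with medians of 0.02 and -0.26. The next was 8041118 to 13255953, with -0.02 against -0.26. The other 2 were on X from 100879473 to 105805708, where the high cells lay at -0.37 and the remaining cells at -0.13, and on chromosome 16 from 72752129 to 77723822, with 0.11 against -0.07. In the X window the high cell was higher in 36.2% of pairs and in the chromosome 16 window in 77.4%. Chromosome 16 as a whole lay at 0.03 and 0.01.

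The proximal and distal levels moved together over the cells, with a Pearson r of 0.465 (n = 50 cells of 1 tumour, rho 0.44, and r 0.45 without the 2 cells farthest from the median). Both levels share the centre of the cell, whose part in this was not tested. Within the groups the relation was weak, with a rho of 0.14 (r 0.31) over the 22 high cells and -0.02 (r 0.10) over the 28 remaining cells. Each group spans only part of the distal levels by the choice of cells, which by itself lowers a correlation within it. Other regions followed the distal level about as closely over the 50 cells. Chromosome 16 had a rho of 0.46 with it (r 0.36), the chromosome 9 step described further on a rho of 0.52 (r 0.44), and chromosome 9 as a whole a rho of -0.38 (r -0.39). In medians of the groups, the largest differences of other chromosomes were 0.05 on 19 and -0.05 on X. Among the 43 cells with a step of at least 0.3, the proximal level lay at 0.01 in the high cells and at -0.20 in the 21 remaining cells. The distal level is the proximal level plus the step, so in cells kept for their step this difference follows in large part from the choice of cells and supports nothing further.

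**Figure D4:**
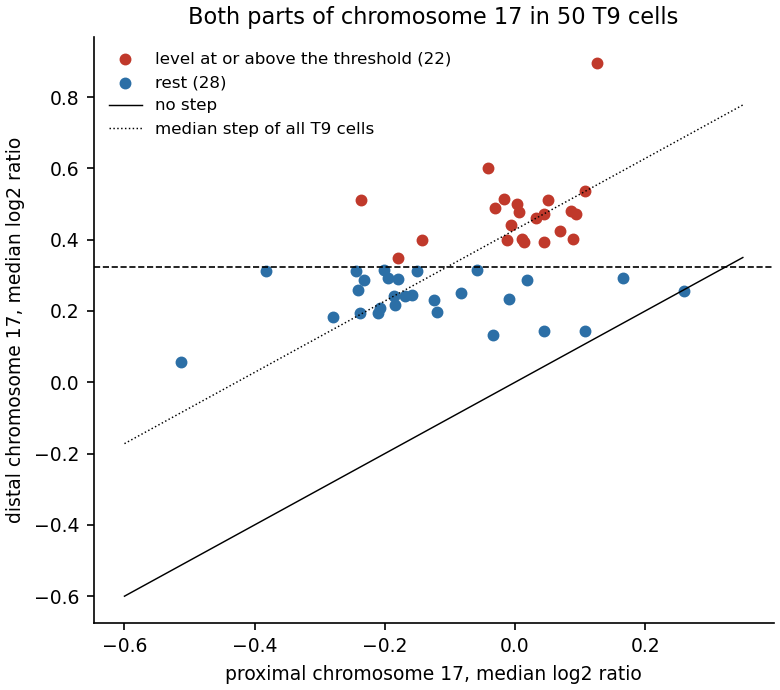
Distal against proximal chromosome 17 level (both median log2 ratios) of each T9 cell; the solid line marks equal levels, the dotted line the median step of all T9 cells, and the dashed line the threshold. Most cells of both groups follow the dotted line, the high cells further up it, and 7 remaining cells have steps under 0.3.

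The 7 remaining cells with a step under 0.3 were unlike each other. Cell 180109 had nearly equal levels, 0.26 proximal and 0.26 distal. Cells 180120, 180111 and 180137 had steps of 0.04, 0.10 and 0.17. These 4 were also the only T9 cells with a chromosome 9 step under 0.6. That step, the excess of the gained start of chromosome 9 (3491634 to 47252283) over its lost remainder (47252284 to 124495110), was 0.05 in cell 180109 and 0.57, 0.41 and 0.51 in the other three, against a median of 1.08 over T9. Cell 180109 differed from the tumour elsewhere too, with chromosome 19 at 0.58 and the end of chromosome 11 at 0.23. The remaining 3, cells 180134, 180144 and 180113, had chromosome 9 steps of 1.14, 0.99 and 0.98 but chromosome 17 steps of 0.13, 0.24 and 0.27.

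Across T9 the steps on chromosomes 9 and 17 grew together, with a Pearson r of 0.82 (n = 50, rho 0.82, and r 0.76 without the 2 farthest cells). The chromosome 9 step had a median of 1.13 (SD 0.18) in the high cells and 1.06 (SD 0.28) in the remaining cells. The chromosome 17 step divided by the chromosome 9 step of the same cell had a median of 0.39 (SD 0.07) in the high cells and 0.39 (SD 0.14) in the remaining cells, and the high cell had the larger quotient in 53.4% of pairs. The highest distal level stood out on this scale. Cell 180124 had a chromosome 17 step of 0.77 with an ordinary chromosome 9 step of 1.12, a quotient of 0.69, whereas cell 180116, with a chromosome 17 step of 0.75, had the largest chromosome 9 step of T9, 1.80, and a quotient of 0.42.

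The other altered regions of T9 were then compared. They came from segmentation of the median profile over all T9 cells, and 4 of them, of at least 40 bins, were called in most T9 cells. The start of chromosome 9 was gained in 22 of 22 high cells (84.6 to 100) and in 23 of 28 remaining cells (82.1%, 63.1 to 93.9), at levels of 0.48 (SD 0.11) and 0.45 (SD 0.15). The remainder of chromosome 9 was lost, at -0.415 or lower, the log2 of 1.5 copies over 2, in 22 and 25 cells, at -0.61 (SD 0.10) and -0.59 (SD 0.14). Distal chromosome 6, 69719313 to 149586546, was gained in 17 of 22 (77.3%, 54.6 to 92.2) and 24 of 28 cells (85.7%, 67.3 to 96.0), at 0.42 (SD 0.23) and 0.43 (SD 0.08). Of chromosome 11, the last bins (99034872 to 121982543) were lost in 21 of 22 (95.5%, 77.2 to 99.9) and 20 of 28 cells (71.4%, 51.3 to 86.8), at -0.58 (SD 0.18) and -0.53 (SD 0.22). Not all of these changes were particular to T9. Distal chromosome 6 had medians of 0.49 in T1 and 0.38 in T7, and the remainder of chromosome 9 -0.63 and -0.02. The start of chromosome 9 lay at -0.36 in T1 and -0.04 in T7, and the end of chromosome 11 at -0.14 and -0.02.

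In each of these 4 regions the medians of the groups differed by 0.05 or less, which is smaller than the SD over cells. All 4 changes were called together in 16 of 22 high cells and 18 of 28 remaining cells. Fewer than 3 were called in 0 high cells and in 4 remaining cells. Other changes were called in fewer cells. Chromosome 4 from 41390311 to 63887267 lay at -0.23 (SD 0.22) in the high and -0.28 (SD 0.15) in the remaining cells. From 75854106 to 111821643 it lay at -0.20 (SD 0.24) and -0.24 (SD 0.14). The first of these was lost in 1 high and 2 remaining cells, and the second in 2 and 3. The high cell was higher in 69.0% and 61.5% of pairs. A stretch of distal X from 123193139 to 150110149 was lost in 8 of 22 and 4 of 28 cells (36.4%, 17.2 to 59.3, and 14.3%, 4.03 to 32.7), at -0.22 (SD 0.21) and -0.20 (SD 0.18). The difference of -0.03 there became -0.18 among the deeper cells and 0.04 among the shallower cells. Chromosome 18 was gained in 4 remaining cells, 180112, 180144, 180145 and 180121, at 0.45, 0.44, 0.44 and 0.43, and in 0 of 22 high cells, where a limit of 3 cells leaves a share up to 13.6% possible (15.4% by the exact interval). Chromosome 19 lay at -0.17 (SD 0.19) in the high cells and -0.23 (SD 0.21) in the remaining cells.

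Profiles outside chromosome 17 did not set the groups apart. Over the 495 windows on other chromosomes, the median profile of the high cells followed that of the remaining cells with a slope of 1.003. Pairs of cells had a median correlation of 0.56 within the high cells, 0.62 within the remaining cells and 0.59 between the groups. The best correlated cell was a high cell for 4 of 22 high cells (18.2%), where random pairing gives 42.9%, and a remaining cell for 23 of 28 remaining cells (82.1%), where it gives 55.1%. As few as 26 different cells served as best match to the 50.

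Depth moved with the distal level. A median of 61.7 Mb was sequenced (range 44.9 to 82.1) in the high cells and 53.4 Mb (43.3 to 79.8) in the remaining cells, and the distal level had a Pearson r of 0.41 with the bases over 50 cells (0.36 without the 2 farthest). Proximal chromosome 17 had an r of 0.04 with them, and 0.19 without the 2 farthest cells. Among the 25 deeper cells, 15 were high cells, and among the 25 shallower cells, 7. Within the deeper cells the proximal level was -0.01 in the high and -0.22 in the remaining cells, and within the shallower cells 0.04 and -0.14, a difference of 0.21 and 0.19. Noise between neighbouring bins had a median of 0.13 in both groups. The part of depth in the distal levels was not tested.

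The genes in the stretch followed its level, as they must, since a gene has the value of the bins around it (here 5) and neighbours share bins. All 147 protein-coding genes of RefSeq in the stretch were higher in the high cells, by 0.14 to 0.31, and this difference was fixed by the choice of cells. Of the 4 fixed lists of 30 genes there, the kinase and signalling genes had a median level of 0.50 in the high and 0.24 in the remaining cells (12 genes), the genes of repair, division and chromatin 0.47 and 0.26 (7), the genes of TGF-beta signalling and epithelium 0.46 and 0.26 (6), and the genes of RNA and metabolism 0.49 and 0.26 (5). The median levels of the lists thus lay within 0.46 to 0.50 in the high cells.

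Single genes show the levels along the stretch, which were not the same throughout. Efna5 (62602957 to 62881317), near its start, lay at 0.49 in the high and 0.24 in the remaining cells. Crim1, which encodes a transmembrane antagonist of bone morphogenetic proteins and lies near the middle, lay at 0.45 and 0.23. Fbxo11, a ubiquitin ligase subunit gene near the end, lay at 0.47 and 0.26. The largest differences were at Epas1 (86753864 to 86833410) and Prkce, a protein kinase C gene, which share bins and lay at 0.54 (SD 0.15) against 0.23 (SD 0.11). The smallest were at Rasgrp3 (75435870 to 75529054), a RAS activator gene, with 0.35 against 0.18, and at Eml4, a microtubule-binding protein gene that shares bins with Mta3, with 0.44 against 0.27. At Epas1, 22 of 22 high and 6 of 28 remaining cells reached the gain threshold, and at Rasgrp3, 15 and 0 did.

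Genes on proximal chromosome 17 lie in bins that did not choose the cells, though the proximal level is tied to the choice as described above. Of all 21347 protein-coding genes outside the stretch, 8.1% differed by at least 0.1, 4.79% higher and 3.31% lower in the high cells. All 17 listed genes there were higher in the high cells by at least 0.1, where 96.3% of the 901 protein-coding genes of that part were, so the list did no more than its surroundings. Runx2, a transcription factor gene, had the largest difference, with 0.01 against -0.28. Notch3, a Notch receptor gene, lay at 0.06 against -0.17. Vegfa, the gene of a vascular growth factor, lay at 0.03 against -0.16, and Ccnd3, a cyclin gene, at -0.01 against -0.20. Cdkn1a lay at 0.01 against -0.13, H2-K1, a class I histocompatibility gene, at 0.03 against -0.12, and Abca3, the lipid transporter gene of alveolar type 2 cells, at 0.02 against -0.15. Tsc2, the tuberin gene, which shares bins with Abca3, lay at 0.02 against -0.15, and Axin1, a scaffold gene of the Wnt pathway, at 0.04 against -0.17. The kinase gene Pim1 lay at 0.04 against -0.13, Daxx, a histone chaperone gene in the bins of H2-K1, at 0.03 against -0.12, and Srf, a transcription factor gene, at 0.02 against -0.17. The chaperone gene Hsp90ab1 lay at 0.04 against -0.16, and Tfeb, a regulator gene of lysosomes, at 0.001 against -0.22. Igf2r, the gene of a receptor that clears IGF2, lay at -0.14 against -0.29. Pdpk1, a kinase gene of the PI3 kinase pathway, had the smallest difference of the list, with -0.02 against -0.13.

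On the other chromosomes, 2 of the 50 listed genes differed by at least 0.1, or 4%, close to the 4.22% of all 20446 protein-coding genes there. One of them, Brca1, a gene of homologous recombination on the lost end of chromosome 11, lay at -0.58 and -0.45. No oncogene of the list of 19 and no alveolar type 2 gene of the list of 10 differed by that much. On the gained start of chromosome 9, Yap1, the Hippo pathway coactivator gene, lay at 0.61 and 0.57, Chek1, a checkpoint kinase gene, at 0.90 and 0.86, and Keap1, the NRF2 inhibitor gene, at 0.46 and 0.43. On its lost remainder, the damage kinase gene Atm lay at -0.55 and -0.53, the histone methyltransferase gene Setd2 at -0.54 and -0.54, and the receptor gene Tgfbr2 at -0.77 and -0.74. On distal chromosome 6, the kinase gene Ret lay at 0.40 and 0.46, the cell cycle inhibitor gene Cdkn1b at 0.38 and 0.43, and the surfactant gene Sftpb at 0.41 and 0.41. At each of these 9 genes the groups differed by less than the SD over the high cells.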

How the data were processed

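Single-cell genomic DNA of 150 cells from 3 tumours of 1 mouse was analysed. The submitters' processing notes name BWA 0.7.17 and the build GRCm38. The deposited tables hold, for each bin and cell, a log2 ratio, a coverage signal (reads per base) and a weight score that did not vary between cells. How the authors made the log2 ratio and the score is not stated in the labels, nor are the sort markers or the amplification. Of 5331 bins, the 5149 on autosomes and X with depth in at least 80% of cells were kept. Single breaks were fitted by least squares with at least 5 bins on each side. Regions came from optimal partitioning (5 bins or more, mean at least 0.2 from 0, penalty per break scaled by 3 and by the log bin number), and adjoining segments of 1 direction were joined. T1 and T7 cells with noise above 0.267 were left out, and no T9 cell exceeded it. RefSeq's GRCm38.p6 table placed all 97 listed genes. An engineered locus and some listed genes are not reported here.

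The cells, regions and lists were chosen with earlier results of these data known; the step of 0.3, the chromosome 9 bound of 0.6, the proximal bound of -0.1 and the splits by depth were set after values were seen, and so were the joining of segments, the cells named away from the threshold and the alternatives on depth, steps and the highest cell. Named genes are those nearest the start, middle and end of the stretch, those with the largest and smallest differences there, listed genes elsewhere that differed by at least 0.1, and up to 3 for each altered region. Named windows are the 10 with the largest differences, and of cells those near the threshold, the highest and lowest and those without a step. Alternatives changed the centre, thresholds, summary, ratio, cells and bins. The break and window measures were tested with steps and shifts added to the values of T7 cells, whose median profile shows no such step on chromosome 17. Smaller added steps were placed less often within 1 bin, so the position in cells with small steps is less certain. The mark for passing at added steps of 0.3 was lowered after their result was seen. Python 3.11.15, numpy 2.4.6, pandas 2.3.3, scipy 1.17.1 and matplotlib 3.10.9 were used.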

Additional observations from a re-analysis of the deposited data

How the results depend on the processing

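The proximal difference between high and remaining cells kept its direction in all alternatives tried, from 0.163 to 0.22. In the 7 other altered regions of at least 40 bins, the small differences moved by less than the SD over cells but changed sign under some alternative in 4. On distal X the difference of -0.03 became -0.18 in the deeper cells, -0.10 without the noisiest cells, -0.08 with the weighted mean and 0.04 in the shallower cells. The number of high cells was 35 at a threshold of 0.25 and 7 among the shallower cells (17 at 0.40, and 32 with the ratio taken from depth). The BIC of 1 less that of 2 Gaussians (main value -0.80) was 1.63 with the ratio from depth, 2.75 without the noisiest cells, 0.056 without low-weight bins, 0.456 from odd bins, 3.30 in the shallower cells and 166.2 with levels divided by the chromosome 9 step, where cell 180109 has a divisor near 0. It was -1.73 with the mode as centre, -3.62 without cells within 0.05 of the threshold and -2.95 in the deeper cells. Windows past 0.1 (main count 22) numbered 47 at a threshold of 0.40, 50 with the ratio from depth, 37 without cells near the threshold, 96 and 11 with bounds of 0.05 and 0.15, 9 with windows of 20 bins, and 75 and 43 in the deeper and shallower cells. Bins past 0.2 (main count 61) numbered 116, 115 and 134 in the first 3 of these settings, 98 without the noisiest cells, 202 and 10 with bounds of 0.15 and 0.3, 273 and 183 in the deeper and shallower cells and 93 in cells with a step. The break lay at the shared position in 23 of the 25 deeper and 21 of the 25 shallower cells. The splits by depth hold fewer cells; the cause of the other shifts was not tested. No paired analysis was possible because no label pairs cells of the 2 groups. The error of a single level was 0.020 to 0.027 between bins of the stretch, and what set it was not tested. A level of the whole genome was not measured.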
